A study of Mus musculus with 96 samples.

Results

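The genes described here are 9 enzymes of nitrogen disposal and glucose production, chosen by symbol from the deposited count table: *Cps1*, *Otc*, *Ass1* and *Asl* of the urea cycle, *Pcx*, *Pck1*, *Fbp1* and *G6pc* of gluconeogenesis, and *Tat*, which starts the breakdown of tyrosine. All 9 symbols were found among the 41575 in the table. The samples were 16 tissues of wild-type and *Scx*-/- mice, all 3 weeks old, with 3 libraries for each tissue and genotype and 96 libraries in all. Whole organs were taken from mice without any treatment named in the labels. *Scx*-/- mice lack scleraxis, a transcription factor of tendon and ligament cells, in every tissue. A count on *Scx* was present in 12 of 48 wild-type libraries and 1 of 48 *Scx*-/- libraries, and no liver or intestine library held any, so that the genotype of those libraries rests on their labels. The *Scx*-/- library with counts, cartilage library 1, held 9, against 80 counts over the 12 wild-type libraries and 1 to 18 in each. No source used here describes the deleted part of the gene. These counts therefore cannot settle whether the label of that library is right.

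The urea cycle turns ammonia from amino acids into urea, and in mammals the whole cycle runs in hepatocytes. CPS1 and OTC work in mitochondria and make citrulline, and ASS1 and ASL turn citrulline into arginine, from which urea is released. Enterocytes hold the citrulline-making steps, and the proximal tubule of the kidney takes up citrulline and makes arginine from it. Gluconeogenesis makes glucose from lactate, glycerol and amino acids through pyruvate carboxylase (*Pcx*), cytosolic phosphoenolpyruvate carboxykinase (*Pck1*), fructose-1,6-bisphosphatase (*Fbp1*) and the catalytic subunit of glucose-6-phosphatase (*G6pc*). Liver, kidney cortex and, to a lesser degree, small intestine are known to carry this pathway, and many of these genes respond to fasting, glucagon and glucocorticoids.

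In GRCm38 (the build mm10) with the GENCODE M21 annotation, *Cps1* lies on the plus strand of chromosome 1 (67123026 to 67231259), *Otc* on the plus strand of chromosome X (10252305 to 10321024), *Ass1* on the plus strand of chromosome 2 (31470207 to 31520672) and *Asl* on the minus strand of chromosome 5 (130011258 to 130029247). *Pcx* lies on the plus strand of chromosome 19 (4510472 to 4621752), *Pck1* on the plus strand of chromosome 2 (173153048 to 173159273), *Fbp1* on the minus strand of chromosome 13 (62864753 to 62888282), *G6pc* on the plus strand of chromosome 11 (101367561 to 101377903) and *Tat* on the plus strand of chromosome 8 (109990437 to 109999803). Only *Pcx* is overlapped by another annotated gene, *Lrfn4* on the opposite strand, and the exons of the pair share 0 bases. *Ass1* and *Pck1* are the only pair on the same chromosome, far apart.

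A RefSeq promoter of GRCm38.p6 was matched for 7 of the 9 genes. The 250 bases before the start site are shown for *Pck1* and *G6pc*, which had their highest levels in kidney and stayed high in liver, and for *Tat*, which was high in liver alone, because these genes show the tissue and genotype patterns described in what follows. For *Pck1* and *G6pc* the RefSeq start lies inside the GENCODE bounds given above, so that the window overlaps the annotated gene. Capitals mark matches on either strand to the letters of 5 motifs. These were TATAAA of the box that positions transcription, ACGTCA as core of the cyclic AMP response element, GTTAAT as a core of sites for hepatocyte nuclear factor 1, TTGCNNAA of C/EBP sites, and CCAAT of the box of that name.

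*Pck1*, chr2:173152823-173153072, plus strand: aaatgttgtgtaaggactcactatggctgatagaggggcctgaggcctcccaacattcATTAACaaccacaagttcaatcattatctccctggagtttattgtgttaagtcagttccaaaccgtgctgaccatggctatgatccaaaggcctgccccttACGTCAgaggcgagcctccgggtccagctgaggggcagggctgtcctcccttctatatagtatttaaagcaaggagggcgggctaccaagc

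*G6pc*, chr11:101367466-101367715, plus strand: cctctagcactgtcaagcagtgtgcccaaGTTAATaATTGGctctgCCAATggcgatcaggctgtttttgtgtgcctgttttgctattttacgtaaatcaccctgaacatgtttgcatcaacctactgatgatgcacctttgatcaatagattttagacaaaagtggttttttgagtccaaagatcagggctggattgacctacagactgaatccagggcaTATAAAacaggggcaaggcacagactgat

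*Tat*, chr8:109990186-109990435, plus strand: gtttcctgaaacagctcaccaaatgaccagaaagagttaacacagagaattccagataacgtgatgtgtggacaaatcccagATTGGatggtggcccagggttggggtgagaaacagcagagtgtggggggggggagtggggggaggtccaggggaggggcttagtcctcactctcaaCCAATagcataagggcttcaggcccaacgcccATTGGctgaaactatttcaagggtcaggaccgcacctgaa

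The *Pck1* sequence held ACGTCA at 91 bases and GTTAAT, on the other strand, at 192 bases before the start site. The *G6pc* sequence held TATAAA at 29 bases and GTTAAT at 221 bases, and 2 CCAAT matches, the first of which begins directly after the base that follows GTTAAT. The *Tat* sequence held 3 CCAAT matches and none of the other letters. Of the 7 genes with a promoter, 1 held TATAAA, 1 ACGTCA, 2 GTTAAT, 0 TTGCNNAA and 4 CCAAT. Over all 32851 promoter windows of this length, 6.47% held ACGTCA, 6.43% GTTAAT, 12.4% TATAAA, 9.56% TTGCNNAA and 33.8% CCAAT. These matches describe the letters of the windows and are not evidence that a factor binds there.

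Library totals ranged from 11244 to 1658192 counts (median 251640), and 16 libraries held under 100000. In the tissues that matter most here the totals differed between genotypes without overlap. Liver had 245271 to 481409 counts in wild-type and 580110 to 768443 in *Scx*-/- libraries, kidney 672218 to 1015500 and 242429 to 447350, and intestine 93927 to 386890 and 26500 to 54955. Levels are given as CPM, counts per 1000000 of the library total, and in the smallest intestine library 1 count was worth 37.7 CPM. Liver libraries held 16.5 to 21.7% of their counts on 8 hepatocyte markers, and all 8 proximal tubule and all 8 enterocyte markers were found in kidney and intestine, respectively. The libraries labelled adipose went against that label, with 29.8 to 40.0% of counts on 8 pancreatic acinar markers and 0.00201 to 0.0179% on 8 adipocyte markers. The vascular libraries held 1.04 to 2.08% on the adipocyte markers, more than any library of another tissue (at most 0.493%). In bulk tissue, fewer cells of a type and less RNA per cell cannot be told apart.

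*Cps1*, *Otc* and *Tat* were highest in liver. Liver held 94.0% of all *Cps1* counts, 92.1% of *Otc* and 97.7% of *Tat*. These shares pool raw counts and rise with depth, which was 2946421 counts in liver and 719642 in intestine. By mean CPM, *Cps1* was at 1812 in liver and 254 in intestine, and *Otc* at 555 and 128. For all 3 genes each of the 6 liver libraries stood above all 90 others. *Ass1* was divided between liver (1082 ± 338 CPM, SD, n = 6) and kidney (754 ± 132), whose libraries overlapped, and the next tissue, bone, was at 40.0 ± 39.5 CPM. *Fbp1* and *G6pc* were likewise shared by kidney and liver, *Pck1* reached its highest levels in kidney, vascular and liver, and *Pcx* was the most widespread gene, found in 85 of 96 libraries. *Asl* was barely measured, with 88 counts in liver, 45 in kidney and at most 56.1 CPM in any library. The heatmap of mean levels shows these patterns for all 16 tissues.

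**Figure D1:**
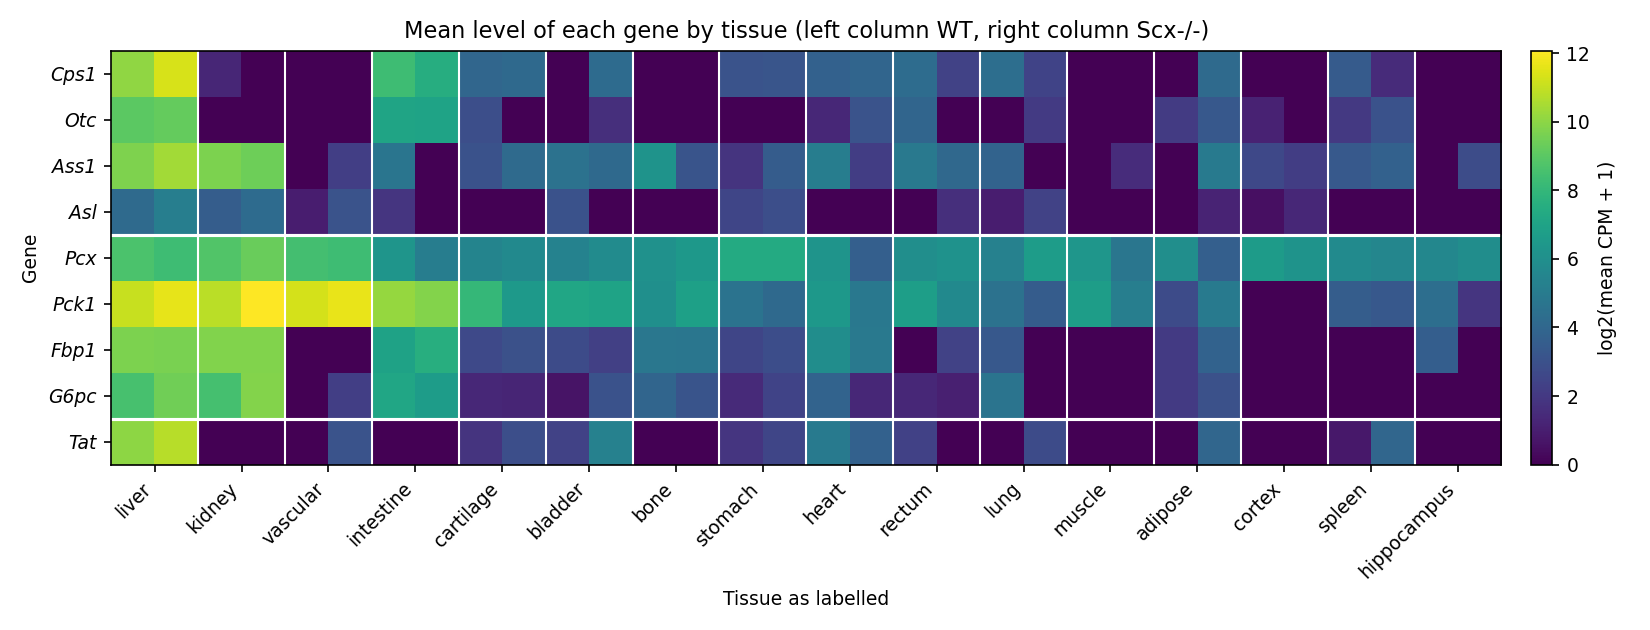
Mean level of the 9 genes as log2(mean CPM + 1) in colour, with genes as rows and tissues as paired columns (left wild-type, right *Scx*-/-, 3 libraries each). White lines part the urea cycle, gluconeogenesis and *Tat*, and tissues are ordered by the summed level of the 9 genes. *Cps1*, *Otc* and *Tat* are bright in liver, *Pck1* also in kidney, vascular and intestine, and *Pcx* shows some signal in every tissue.

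Carbamoyl phosphate synthetase, encoded by *Cps1*, admits ammonia to the cycle. In liver, the wild-type libraries were at 1149, 1166 and 910.3 CPM and the *Scx*-/- libraries at 2047, 2896 and 2705 CPM. In intestine the wild-type libraries were at 305, 565 and 95.8 CPM and the *Scx*-/- libraries at 309, 133 and 113 CPM. Every intestine library thus held *Cps1*, below every liver library. Kidney held 3 counts in 1 library, which put liver 2408 times higher (exact 95% Poisson interval 824 to 11681, counting error only).

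Ornithine transcarbamylase, encoded by *Otc*, makes citrulline from carbamoyl phosphate. Its liver levels were 479.8, 550.4 and 508 CPM in wild-type and 606, 662 and 524 CPM in *Scx*-/- libraries. Intestine followed with 147, 55.0 and 192 CPM in wild-type and 109, 267 and 0 CPM in *Scx*-/- libraries. Kidney held 0 counts in 3583174, and against a floor of 3 counts over those 6 libraries liver was at least 677-fold and intestine at least 159-fold higher.

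Argininosuccinate synthetase, encoded by *Ass1*, carries citrulline on towards arginine. The liver libraries were at 773, 1133 and 607 CPM in wild-type and 1477, 1379.8 and 1124 CPM in *Scx*-/- mice, and kidney at 710, 1008 and 769 CPM and 686, 718 and 631 CPM. In intestine only 2 wild-type libraries held any, with 62.8 and 10.6 CPM. *Ass1* was thus the only one of these 4 urea cycle genes with a high level in kidney, where *Otc* was at 0.

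Argininosuccinate lyase, encoded by *Asl*, completes arginine synthesis. Its liver libraries were at 33.2, 0 and 17.6 CPM in wild-type and 29.9, 56.1 and 19.0 CPM in *Scx*-/- mice, and kidney spanned 5.95 to 33.0 CPM over all 6 libraries. No difference of *Asl* between genotypes or tissues passed in the tests given here, but at counts this low only a large one could have, and against intestine it passed under other scalings.

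Pyruvate carboxylase, encoded by *Pcx*, supplies oxaloacetate for gluconeogenesis and also for the citric acid cycle and for fat synthesis. Kidney libraries were at 358, 435 and 525 CPM in wild-type and 561, 688 and 639 CPM in *Scx*-/- mice, and liver at 451, 440.3 and 296 CPM and 217, 362 and 388 CPM. Vascular libraries reached similar levels (493, 336 and 224 CPM in wild-type, 223, 557 and 190.03 CPM in *Scx*-/- mice). These 3 tissues overlapped each other, and stomach came next with 191, 114 and 198 CPM in wild-type and 157, 172 and 172 CPM in *Scx*-/- libraries.

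PEPCK, encoded by *Pck1*, is a rate-controlling enzyme of gluconeogenesis and, in adipocytes, of glycerol synthesis. The kidney libraries were at 1745, 1292 and 2449 CPM in wild-type and 2039, 6354 and 4488 CPM in *Scx*-/- mice, the liver libraries at 1801, 2577 and 2057 CPM and 3333, 2845 and 3289 CPM. The vascular libraries were at 1691, 2781 and 3032 CPM in wild-type and 2495, 4628 and 2582 CPM in *Scx*-/- mice. Kidney, vascular and liver overlapped, whereas the next tissue, intestine (1677, 448 and 1256 CPM in wild-type, 1237, 433 and 1057 CPM in *Scx*-/- mice), lay below every liver and vascular library. High *Pck1* in the vascular libraries stood beside their adipocyte marker sum of 1.04 to 2.08%, and the part of adipocytes in it was not tested. The authors linked the genes specific to vascular samples to brown fat, judged these samples contaminated and left them out of their genotype comparisons. *Fbp1* was at 0 in all 6 of those libraries.

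Fructose-1,6-bisphosphatase, encoded by *Fbp1*, was even across kidney libraries, at 820.3, 932 and 882 CPM in wild-type and 892, 976 and 784 CPM in *Scx*-/- mice. Liver was at 1030.3, 881 and 536 CPM and 518, 1051 and 838 CPM, and overlapped kidney in both genotypes. Intestine libraries were at 62.0, 219.9 and 85.2 CPM and 382, 0 and 189 CPM. The paralog *Fbp2*, known from muscle, was highest in intestine, with 563.5 ± 139 CPM in wild-type libraries (SD, n = 3). *Pck2*, the mitochondrial paralog of *Pck1*, averaged at most 181 CPM, in *Scx*-/- vascular libraries, and *G6pc3*, the widely expressed paralog of *G6pc*, at most 104 CPM, in wild-type rectum.

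Glucose-6-phosphatase, encoded by *G6pc*, releases free glucose. Kidney libraries were at 438, 307 and 329 CPM in wild-type and 738, 924 and 1023 CPM in *Scx*-/- mice, liver at 295, 355 and 483 CPM and 541, 729.9 and 860.2 CPM. In each of these organs every *Scx*-/- library lay above every wild-type library. Intestine held 168, 62.8 and 192 CPM in wild-type and 237, 66.6 and 0 CPM in *Scx*-/- libraries, and outside the 3 organs no tissue averaged over 11.9 CPM.

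Tyrosine aminotransferase, encoded by *Tat*, is a classical glucocorticoid-induced gene of hepatocytes. Its liver libraries were widely spread, at 974, 1553 and 596 CPM in wild-type and 1829.7, 1049.8 and 2317 CPM in *Scx*-/- mice. Kidney and intestine held 0 counts, which placed liver at least 1778-fold and at least 357-fold higher.

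**Figure D2:**
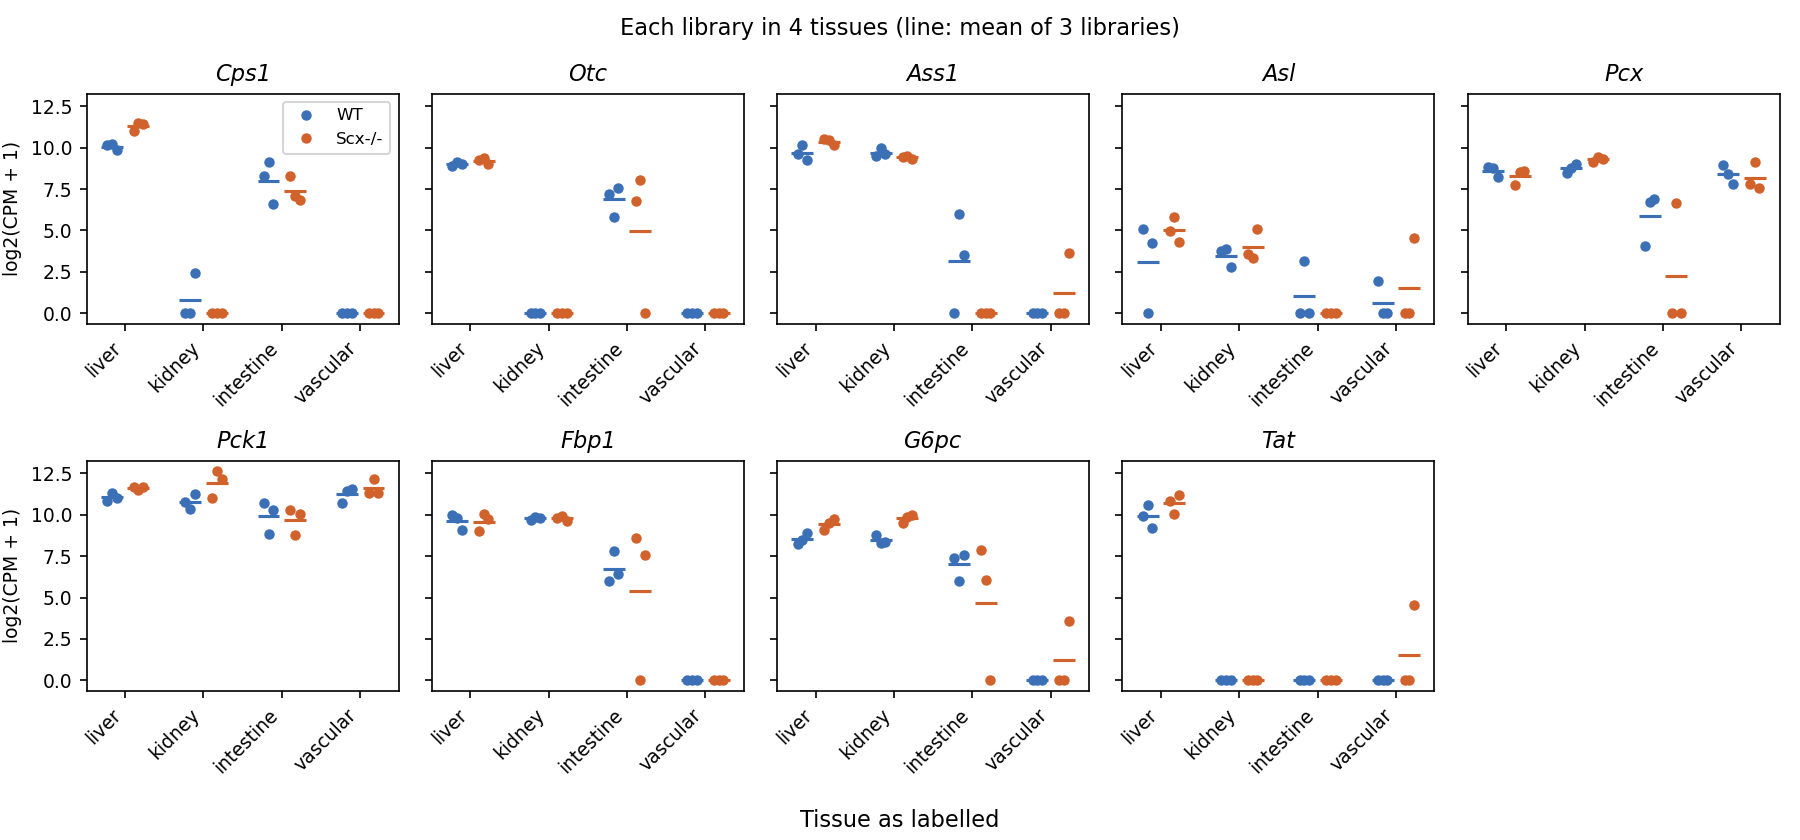
Level of each gene in each library of 4 tissues as log2(CPM + 1), with wild-type in blue and *Scx*-/- in orange, points for libraries and lines for the mean of 3 on this scale. *Cps1* and *G6pc* in liver and *G6pc* in kidney show the genotypes apart, whereas the liver points of *Tat* overlap.

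The tissue differences were tested in a fit to the 18 liver, kidney and intestine libraries scaled by library totals, with a call at an adjusted p under 0.05 and an absolute log2 fold change over 1. Liver exceeded kidney for 3 of the 9 genes (*Cps1*, *Otc* and *Tat*), while 4.03% of all 17279 genes tested were called in that direction, 14.4% in the other and 18.4% in either. For *Ass1* the liver over kidney difference was 0.49 ± 0.38 on the log2 scale (SE, n = 6 libraries each), with edgeR's adjusted p = 0.425, but under TMM scaling it was 1.21 with an adjusted p of 0.0140. *Pcx*, *Pck1*, *Fbp1* and *G6pc* differed from kidney by between -0.56 and -0.11 under library totals and by between 0.16 and 0.62 under TMM, and none of them was called. Over the 6113 genes with a mean of at least 10 counts per library the median moved by -0.95 between liver and kidney under library totals and by -0.24 under TMM, so that relative to the median gene these 4 lay higher in liver.

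Liver exceeded intestine for 8 of 9 genes, all but *Asl* (12.9% of genes called in either direction, 3.96% higher and 8.95% lower in liver, a balance that turned under other scalings). Among the 6 of these with counts in both genotypes of both organs, the log2 difference was smallest for *Pck1*, at 1.35 ± 0.31 with edgeR's adjusted p = 2.65e-04, and largest for *Pcx*, at 2.95 ± 0.56 (edgeR, adjusted p = 3.09e-06). *Ass1* held 9 counts in wild-type and 0 in *Scx*-/- intestine, so that its fitted fold change is no measure of size and is not given. Kidney exceeded intestine for 5 genes (*Ass1*, *Pcx*, *Pck1*, *Fbp1* and *G6pc*) and was lower for 2 (*Cps1* and *Otc*), against 9.73% of genes called (5.69% higher, 4.04% lower). The scaling changed the balance of all genes called: liver against kidney gave 696 higher and 2485 lower under library totals, and 911 and 1233 under TMM. Against intestine the balance turned for liver, from 685 higher and 1546 lower under library totals to 1605 and 710 under TMM and 1284 and 837 under RLE, and moved for kidney, from 984 and 698 to 1728 and 527 under TMM and 1151 and 619 under RLE.

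The division of counts among the 4 urea cycle genes differed by organ. In wild-type liver, *Cps1* took 44.2 ± 3.15% of their counts, *Otc* 21.3 ± 3.10%, *Ass1* 33.7 ± 5.32% and *Asl* 0.743 ± 0.691% (SD, n = 3). In wild-type kidney *Ass1* took 98.5 ± 0.252% and *Asl* 1.29 ± 0.505%. In wild-type intestine *Cps1* took 60.5 ± 25.6% and *Otc* 34.9 ± 28.2%, on 291 counts in all. These are shares of counts and not of transcripts per length. In *Scx*-/- liver, *Cps1* took 56.4 ± 6.49% and *Otc* 13.3 ± 1.29%, and neither share overlapped between genotypes. The 4 shares make up a whole, so a higher *Cps1* share lowers the others. The *Otc* level itself was 513 ± 35.5 CPM in wild-type and 597 ± 69.3 CPM in *Scx*-/- liver, with overlap.

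**Figure D3:**
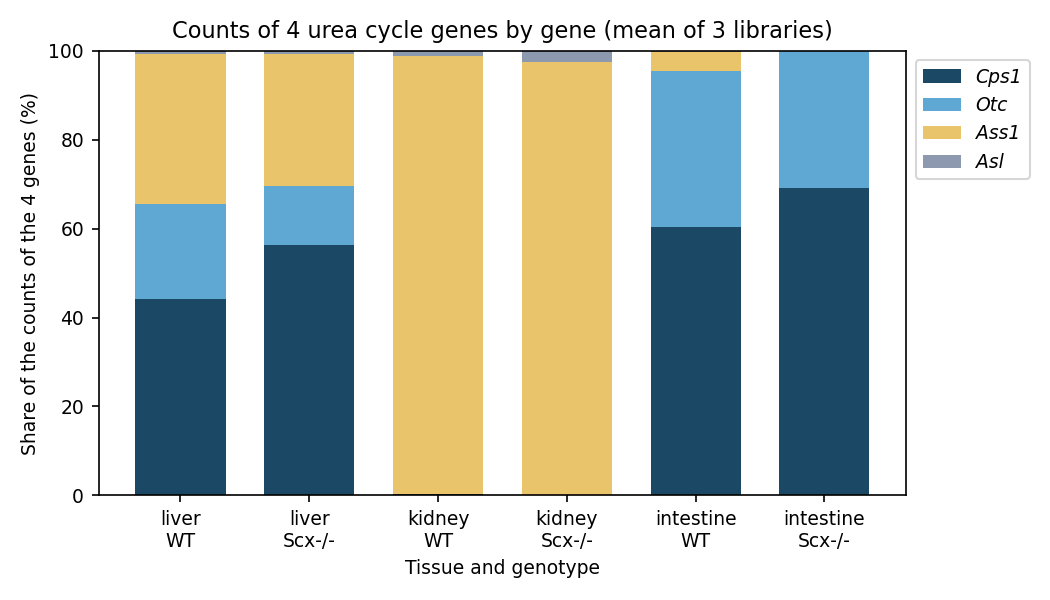
Share of the counts of 4 urea cycle genes, in percent, as stacked bars by tissue and genotype, each the mean of 3 libraries. Liver holds all 4 genes, kidney is nearly all *Ass1*, and intestine is mostly *Cps1* and *Otc*. The bar of *Scx*-/- intestine rests on 38 counts.

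Outside liver, kidney and intestine, *Cps1*, *Otc* and *Tat* were found at low levels, and libraries with more *Alb*, the albumin gene of hepatocytes, held them more often. Of 78 libraries of 13 tissues, 39 lay above the median *Alb* level of 154 CPM, and 32 of them held a count of any of the 3 genes, compared with 7 of the other 39. Per 1000 *Alb* counts these libraries held 26.4 *Cps1*, 8.01 *Otc* and 17.9 *Tat* counts, and liver 23.1, 6.50 and 17.1. Per 1000 *Alb* counts *Ass1* was higher outside liver, at 40.6 compared with 13.3, as were *Fbp1* (16.2 and 9.21) and *G6pc* (11.2 and 6.66). Whether liver RNA reached these libraries was not tested.

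Whether loss of *Scx* changed these enzymes was examined in each tissue by comparing 3 *Scx*-/- with 3 wild-type libraries. Fold changes are *Scx*-/- over wild-type from edgeR's quasi-likelihood test with TMM factors, and adjusted p-values are Benjamini-Hochberg values over all genes of the tissue. Of the members, *Cps1* and *Tat* rose in liver and *G6pc* rose in kidney, and no other of the 112 pairs of gene and tissue that could be tested passed an adjusted p of 0.05. In liver 2 of 9 tested genes were called, with 0.442% of 13356 genes called (0.299% higher). In kidney 1 of 7 was called, with 0.195% of 15377 genes called (0.078% higher). Elsewhere 0 members were called and few genes at all, namely 0.441% in rectum, 0.112% in bladder, 0.0609% in stomach, 0.0482% in muscle, 0.0391% in heart, 0.0329% in vascular, 0.0222% in cartilage, 0.0091% in adipose, 0.00727% in lung, 0.0072% in spleen, 0.00708% in hippocampus and 0% in bone, cortex and intestine. Outside liver and kidney, at an unadjusted p under 0.05, edgeR found 1 member each in adipose, bladder and cartilage, where 3.37%, 4.33% and 3.21% of all genes passed, and DESeq2 1 in bladder (3.92%). A joint edgeR fit over all 32 groups found 4 in adipose (9.63% of all genes), 2 in bladder (4.98%), 2 in lung (4.33%), 1 in bone (7.4%), 1 in muscle (6.12%) and 0 in cartilage (7.48%).

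*Cps1* in liver rose from 1075 ± 143 to 2549 ± 445 CPM (SD, n = 3 each). The log2 fold change was 1.42 ± 0.23 (SE; edgeR, adjusted p = 1.38e-06), and the genotypes did not overlap. The call was lost only in a fit over all 32 groups, which also estimated the spread in another way (1.64, edgeR adjusted p = 0.736).

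*Tat* in liver rose from 1041 ± 482 to 1732 ± 639 CPM, by 0.94 ± 0.24 on the log2 scale (edgeR, adjusted p = 0.0277), although the libraries of the genotypes overlapped. This call was lost under RLE factors (edgeR, adjusted p = 0.0896), library totals (0.232), filterByExpr (0.553), DESeq2 (0.474), a replicate block (0.157) and the fit over 32 groups (0.815). It was also lost without wild-type library 1 (0.0714) or 3 (0.502) and without *Scx*-/- library 1 (0.229) or 3 (0.899).

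*G6pc* in kidney rose from 358 ± 70.4 to 895 ± 145 CPM, by 1.21 ± 0.25 on the log2 scale (edgeR, adjusted p = 0.00242), with no overlap. The call was lost under filterByExpr (edgeR, adjusted p = 0.0708) and in the fit over 32 groups (0.939). In liver the fold change of *G6pc* was 1.10 ± 0.31, with an adjusted p of 0.0692 that passed only without wild-type library 3 (edgeR, 0.0133).

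The other liver enzymes did not pass. *Pck1* had a log2 fold change of 0.75 ± 0.21 (edgeR, adjusted p = 0.0692), *Ass1* 0.86 ± 0.26 (0.128) and *Otc* 0.41 ± 0.30 (0.764). Without wild-type library 2, *Ass1* (edgeR, adjusted p = 0.0328) and *Pck1* (0.0376) passed. *Fbp1* at 0.14 ± 0.27 and *Pcx* at -0.12 ± 0.34 had the smallest differences, and their genotypes overlapped.

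In liver 8 of the 9 genes had a positive fold change and their median was 0.86, compared with 7563 of 13356 and 0.22 over all genes tested. Under 11 alternatives 7 to 9 had a positive fold change and their median was 0.65 to 0.89, while the median of all genes was 0.01 to 0.53, highest without wild-type library 1. At 50 CPM or more in a genotype, 3 of 8 members (*Cps1*, *Pck1* and *G6pc*) had every *Scx*-/- library above every wild-type library, as did 8.17% of 2829 such genes in liver. The summed level of the 4 urea cycle genes was 2442 ± 404 CPM in wild-type and 4509 ± 433 CPM in *Scx*-/- liver, again without overlap. Of these sums *Cps1*, already counted above, was 1075 ± 143 and 2549 ± 445 CPM. The 8 hepatocyte markers, all detected in each genotype, went both ways. Their sum was 18.7 to 21.7% of counts in wild-type and 16.5 to 19.0% in *Scx*-/- liver, while 4 of the 8 had a positive fold change and *Apoa2* was called higher, at 0.72 ± 0.16 (edgeR, adjusted p = 0.00314). The part of hepatocyte content in the differences was not tested. The deeper libraries were those of *Scx*-/- liver, and the part of depth in these differences was not tested.

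**Figure D4:**
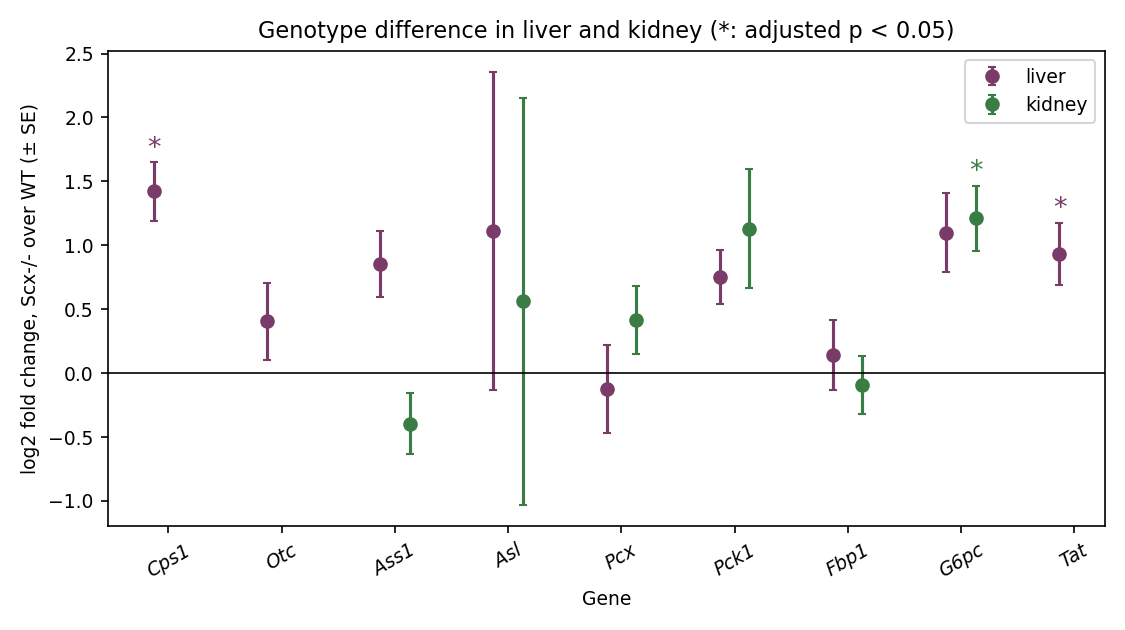
Log2 fold change of *Scx*-/- over wild-type with its standard error in liver (purple) and kidney (green), 3 libraries per genotype, for genes with more than 3 counts in the tissue. Stars mark an adjusted p under 0.05 by edgeR, and most liver points lie above 0.

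In kidney, *Pck1* was not called. Its log2 fold change was 1.13 ± 0.46 (edgeR, adjusted p = 0.791), with the genotypes overlapping through *Scx*-/- library 1. Without that library the fold change was 1.46 (edgeR, adjusted p = 7.57e-12), and without library 2 it was 0.76 (0.0338). A fit with a replicate block, in which the numbers need not pair the mice, gave 1.02 (edgeR, adjusted p = 0.00271). *Pcx* had a fold change of 0.42 ± 0.26 (edgeR, adjusted p = 0.791) with no overlap, *Ass1* -0.39 ± 0.24 (0.791) and *Fbp1* -0.09 ± 0.23 (0.936). Of 5 members at 50 CPM or more, *Pcx* and *G6pc* had all *Scx*-/- libraries above wild-type, as did 7.6% of 4594 genes.

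Proximal tubule markers differed between the kidney groups, with 2.58 to 3.68% of counts in wild-type and 1.87 to 2.11% in *Scx*-/- libraries. Without *Kap*, an androgen-regulated gene of the proximal tubule, the other 7 markers took 1.03 to 1.20% and 1.01 to 1.14%. *Kap* itself fell from 20763 ± 5877 to 9364 ± 1666 CPM (log2 fold change -1.25 ± 0.12, edgeR, adjusted p = 5.79e-16), and *Slc22a6*, an organic anion transporter, was at 298, 783 and 356 CPM in wild-type and 199, 187 and 206 CPM in *Scx*-/- libraries (-1.39 ± 0.31, edgeR, adjusted p = 0.00687). The call held under 10 of 11 alternatives for *Kap* and 7 of 11 for *Slc22a6*, whose adjusted p rose to 0.958. All 8 adipocyte markers had a negative fold change in kidney (median -1.96, against -0.28 over all genes), 0 were called after adjustment and 5 were lower at the thresholds of the study. At those thresholds 4.32% of all 15377 kidney genes passed in either direction. *Fabp4*, a fatty acid carrier of adipocytes, was at -1.20 ± 0.37 (edgeR, adjusted p = 0.317) and *Cfd*, the adipsin gene, at -1.68 ± 0.53 (0.354). Their sum took 0.0284 to 0.0772% of counts in wild-type and 0.0123 to 0.0315% in *Scx*-/- libraries, with 8 and 7 of the 8 genes found. The part of the tubule and adipocyte marker differences in the kidney results was not tested.

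The liver and kidney differences were set against each other by an interaction term, and 0 of 9 members were called by edgeR, with 0.00579% of 17279 genes called. Before adjustment only *Cps1* passed 0.05, of which kidney held 3 counts. DESeq2 also called 0. For *G6pc* the liver minus kidney difference was -0.41 (95% interval -1.98 to 1.17) and for *Pck1* -0.67 (-1.86 to 0.51). On simulated data the interaction was called for 0 of 100 genes changed 4-fold in *Scx*-/- liver alone. The count of 0 members therefore cannot decide whether the organs differ. The intervals are wide, and a missed threshold does not show that the organs respond alike.

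In intestine 8 of the genes could be tested and 0 were called, with 0% of 12068 genes called. At an unadjusted p under 0.05 edgeR found 0 of the 8, with 4.25% of all genes, and DESeq2 0, with 2.93%. *Scx*-/- intestine libraries held 24 *Cps1* and 14 *Otc* counts in all, so that only a large difference could have been detected at this depth.

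Elsewhere, *Pck1* in cartilage was at 354, 157 and 268 CPM in wild-type and 132, 122 and 14.5 CPM in *Scx*-/- libraries (log2 fold change -1.49 ± 0.67, edgeR, adjusted p = 0.769). Without *Scx*-/- library 1, which held *Scx* counts, it was -1.91 ± 0.78 (edgeR, adjusted p = 0.830), and the genotypes still did not overlap. Adipocyte markers took 0.140 to 0.237% of counts in wild-type and 0.118 to 0.127% in *Scx*-/- cartilage, and their part was not tested. All wild-type libraries stood above all *Scx*-/- libraries for 6.44% of genes at 50 CPM or more in cartilage and for 5.53% in bone, where *Ass1* (52.0, 100.4 and 63.7 CPM in wild-type, 0, 0 and 23.7 CPM in *Scx*-/- libraries) was among them. These *Ass1* levels were 6, 6 and 3 counts against 0, 0 and 1. *Ass1* was not called in bone (log2 fold change -3.56 ± 2.55, edgeR, adjusted p = 0.636).

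*Pck1* reached 100 CPM on average in 4 more tissues, with libraries widely apart. Bladder libraries were at 64.6, 3.57 and 357 CPM in wild-type and 43.6, 209 and 123 CPM in *Scx*-/- mice, and bone at 78.0, 50.2 and 63.7 CPM and 104, 72.4 and 166 CPM. Muscle was at 0, 314 and 0 CPM and 26.1, 6.47 and 72.7 CPM, and rectum at 267, 12.03 and 40.2 CPM and 0, 43.3 and 115 CPM. In bladder, muscle and rectum 1 library made most of the wild-type mean. In the tissues not described by library, the highest single library was at 58.5 CPM for *Cps1* (lung), 23.0 for *Otc* (rectum), 88.9 for *Ass1* (heart), 22.4 for *Asl* (vascular), 49.7 for *G6pc* (lung) and 96.7 for *Tat* (bladder). *Pck1* and *Fbp1* reached 178 CPM in 1 heart library and *Pcx* 233 CPM in 1 lung library. That heart library held only 11244 counts, so that 178 CPM was 2 counts and the 88.9 CPM of *Ass1*, in the same library, 1 count. *Pcx* averaged at least 37.0 CPM in each of these tissues, and each of the other genes was at 0 on average in at least 1 of them except *Ass1*, which averaged at least 0.962 CPM.

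With the thresholds of the study, which are a log2 fold change beyond 1 in either direction and p below 0.05 before adjustment, edgeR called 6 pairs of gene and tissue. They were *Cps1* and *G6pc* in liver (4.29% of genes called there), *G6pc* in kidney (4.32%), *Ass1* in adipose (3.24%), *Cps1* in bladder (3.76%) and, as the only fall, *Pck1* in cartilage (3.17%). DESeq2, the tool of the study, called 4 at these thresholds, namely *Cps1* in liver (3.92% of genes called) and bladder (3.44%) and *G6pc* and *Pck1* in kidney (3.9%), and did not call *Ass1* in adipose, *Pck1* in cartilage or *G6pc* in liver. *Cps1* in bladder was at 0 in all wild-type libraries and at 0, 53.1 and 0 CPM in *Scx*-/- libraries, and the library that held it had *Alb* at 3046 CPM. *Ass1* in adipose was at 0 in all wild-type libraries and at 15.9, 11.99 and 60.2 CPM in *Scx*-/- libraries, the highest of which had *Alb* at 1570 CPM. Hepatocyte markers took 0.0281 to 0.0559% of counts in wild-type and 0.0584 to 0.603% in *Scx*-/- bladder, and 0.0846 to 0.156% and 0.0477 to 0.343% in adipose. In bladder 6 of the 8 were found in wild-type and 8 in *Scx*-/- libraries, in adipose 8 in each. Their part in these calls was not tested. In the tissues without an edgeR call of a member the share was 5% in rectum, 4.54% in muscle, 4.25% in intestine, 4.19% in vascular, 3.91% in hippocampus, 3.51% in bone, 3.41% in heart, 3.31% in stomach, 2.99% in spleen, 2.77% in cortex and 2.69% in lung.

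Genes that feed the urea cycle and gluconeogenesis with amino acids were examined in liver as well. Of 8 urea cycle partners tested, 2 rose, with 0.299% of genes called higher in liver, and 7 had a positive fold change (median 0.44, against 0.22 over all genes, and 0.26 to 0.60 under 11 alternatives). The partner and all-gene medians were close with a replicate block (0.41 and 0.40) and without wild-type library 1 (0.52 and 0.53). In the other alternatives the partners lay higher. *Oat*, ornithine aminotransferase, was at 287, 277 and 127 CPM in wild-type and 471, 822 and 1089 CPM in *Scx*-/- liver (log2 fold change 1.95 ± 0.32, edgeR, adjusted p = 1.59e-06). *Slc7a2*, a carrier of arginine, lysine and ornithine, was at 20.8, 179 and 84.7 CPM and at 236, 429 and 378 CPM (2.11 ± 0.42, adjusted p = 3.35e-04). For either gene the genotypes did not overlap.

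Of 13 genes of amino acid catabolism, 2 rose, 0 fell and all 13 had a positive fold change (median 0.68, compared with 0.22 over all genes). *Sds*, serine dehydratase, was at 222, 102 and 155 CPM in wild-type and 276, 441 and 602 CPM in *Scx*-/- liver (1.61 ± 0.37, edgeR, adjusted p = 0.00601). *Hpd*, which follows *Tat* in tyrosine breakdown, was at 3702, 1537 and 2092 CPM and at 3419.9, 4347 and 4256 CPM, with overlap (0.87 ± 0.20, edgeR, adjusted p = 0.00633). Under 11 alternatives 12 or 13 of the 13 stayed positive, and the call held in 10 for *Oat*, 9 for *Slc7a2*, 6 for *Sds* and 5 for *Hpd*.

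**Figure D5:**
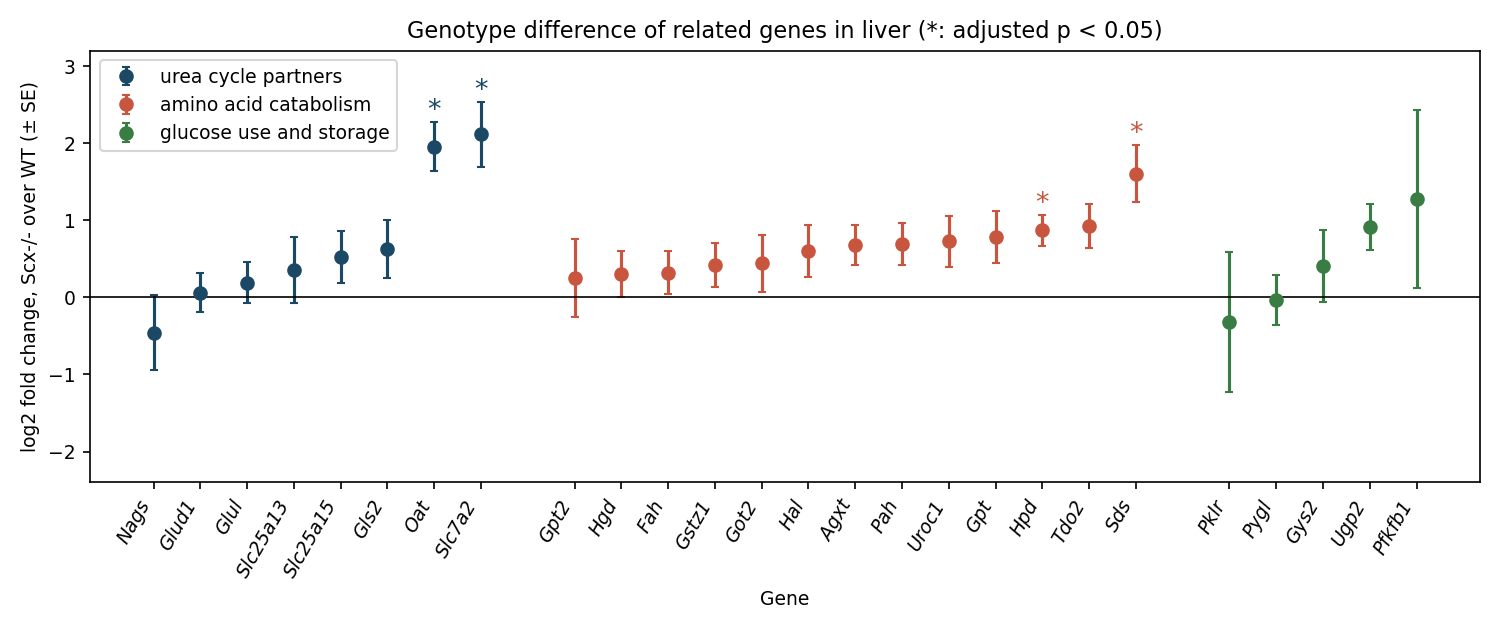
Log2 fold change of *Scx*-/- over wild-type in liver, with its standard error, for urea cycle partners, amino acid catabolism and glucose use and storage (3 libraries per genotype). Stars mark an adjusted p under 0.05 by edgeR. All 13 points of amino acid catabolism lie above 0, and the genes of glucose use lie on either side.

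Of 12 gluconeogenesis partners tested in liver 0 were called and 7 had a positive fold change (median 0.35, and 0.22 over all genes). Without wild-type library 1 or 2 or *Scx*-/- library 1, 1 of them was called higher. The median was 0.06 without *Scx*-/- library 2 (0.13 over all genes) and 0.55 without wild-type library 3 (0.35). It also lay below that of all genes with a replicate block (0.10 and 0.40) and without wild-type library 1 (0.32 and 0.53), and above it in the other alternatives. The values closest to the threshold were those of *Slc2a2*, the hepatocyte glucose transporter, at 1.42 ± 0.41 (edgeR, adjusted p = 0.0951), and *Got1*, the cytosolic aspartate aminotransferase, at 1.15 ± 0.33 (0.0944). Of 5 genes of glucose use and storage tested in liver 0 were called by edgeR and 3 had a positive fold change (median 0.41, and 0.16 to 0.60 under 11 alternatives). In kidney, 0 of 9 urea cycle partners, 0 of 12 gluconeogenesis partners and 0 of 9 amino acid catabolism genes were called, but 1 of the last was called higher without wild-type library 1.

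The genes whose levels were most like each member were found by Pearson correlation over the 16 tissue means of log2(CPM + 1), among 6530 genes reaching 100 CPM in at least 1 tissue. The tissue means share library depth, and the values describe likeness only. *Cps1* was most like *Cyp3a25* (0.978), *Otc* (0.964) and *Ugt2b5* (0.957), and *Otc* most like *Cps1*, *Nags* (0.962) and *Cyp3a25*. *Nags* makes the essential activator of CPS1. *Ass1* was most like *Ttc36* (0.977), *Aldh8a1* and *Spp2*, and *Tat* like *Hrg* (0.991), *Akr1c6* and *Mug1*.

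For gluconeogenesis, *G6pc* was most like *0610005C13Rik* (0.981), *Pipox* and *Cyp4a10*, and *Fbp1* like *Slc2a2* (0.961), *Pipox* and *Cyp4a10*. *Pck1* was most like *Slc27a2* (0.868), *Retsat* and *Ehhadh*, genes of fatty acid and retinol metabolism, and *Pcx* like *Ddt* (0.899), *Fah* and *BC026585*. *Asl* was most like *Hykk* (0.941), *Prodh2* and *Dmgdh*, on few counts. Among the members themselves the highest correlations were those of *Cps1* with *Otc* (0.964) and *Fbp1* with *G6pc* (0.952).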

How the data were processed

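MuSeq gives each sample a barcode at reverse transcription and enriches 3′ ends. The record of the series calls the method Smart-seq2 based. The deposited values are raw counts per symbol. The authors ran Bowtie2 against mm10 and then HTSeq. For their versions, the annotation, strand setting, molecular identifiers, sex and mouse identity no source used here gives any detail, so p-values measure the spread between libraries. Groups came from the labels, and 0 columns were left unmapped.

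Levels are CPM on library totals (11244 to 1658192 counts). Genotypes were compared within tissues by edgeR 4.0.16 in R 4.3.3 (quasi-likelihood, robust, TMM, genes at 0 in all 6 libraries removed, Benjamini-Hochberg). Liver, kidney and intestine were compared in a fit of 6 group means on library totals. SE is the log2 fold change over the root of F. Intervals and floors (3 counts) cover counting error only. Replicates differed beyond counting error (chi-square per degree of freedom at least 6.93). On simulated data, for genes at 100 CPM or more, the genotype test called 2% of those changed 2-fold in liver and 3% in kidney. Of those changed 4-fold it called 50% and 74%. Liver against kidney was called for 0% at 2-fold and 19% at 4-fold, and the interaction for 0% at either. Python 3.11.15, pandas 2.3.3 and scipy 1.17.1 were used.

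Alternatives were RLE, library totals or TMM, filterByExpr, a replicate block, DESeq2 1.42.0, a fit over 32 groups, the study's thresholds and leaving out libraries. The fit over 32 groups also estimated the spread of counts in another way, so its changes cannot be put down to the added tissues alone. Alternatives of the related gene lists were added after results were seen. Members and lists were chosen with earlier results of these data known. Members are given in every library where a genotype averaged 100 CPM or a call was made, and elsewhere by range. List genes are named where called in liver, kidney or intestine, and paralogs and the 3 genes most like each member in any case. *Slc2a2*, *Got1*, *Ppargc1a*, *Hnf4a*, *Alb*, *Fabp4* and *Cfd*, the sum without *Kap* and *Ass1* in bone were singled out after their values were seen. A few genes of the lists are not reported here.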

Additional observations from a re-analysis of the deposited data

Results flagged for a closer look

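*Pck1* differed between genotypes in opposite directions in liver and cartilage, with every *Scx*-/- library above every wild-type library in liver and below in cartilage. The log2 fold change in liver minus that in cartilage was 2.24. The difference between these tissues was not tested, and neither fold change passed an adjusted p of 0.05 (edgeR, 0.0692 and 0.769). Groups of 3 libraries were too small for a search for single outlying libraries.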

How the results depend on the processing

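The number of gene and tissue pairs called between genotypes was 3. It was 2 under RLE factors, library totals and DESeq2, 1 under filterByExpr (*Cps1* in liver), 0 in the edgeR fit over 32 groups (12 of 112 at an unadjusted p under 0.05, with 6.28% of all pairs of gene and tissue), 6 at the study's thresholds, and 2 to 5 without single libraries, with 5 without wild-type replicate 2. Same-numbered libraries did not deviate together in all pairs of any tissue, so the replicate numbers were not taken to pair samples. With a replicate block 3 pairs were called, *Cps1* in liver and *G6pc* and *Pck1* in kidney (edgeR, adjusted p = 0.00271 for *Pck1*), and *Tat* in liver was not (0.157). Among repeats of single genotype values 158 kept their direction and side of the threshold, 6 newly passed, 13 no longer passed and 10 changed sign without a call. Among those of tissue values 282 kept both, 4 newly passed (*Ass1* against kidney and *Asl* against intestine under TMM and RLE) and 11 changed sign without a call. Between genotypes, *Fbp1* in kidney turned to 0.018 under RLE, 0.0201 under DESeq2 and 0.0102 under library totals, *Fbp1* in liver to -0.0256 under library totals, and *Pcx* in liver to 0.0847 in the fit over 32 groups. Between liver and kidney, *Fbp1* turned to 0.59 under TMM and 0.68 under RLE, *G6pc* to 0.58 and 0.67, *Pck1* to 0.62 and 0.69, and *Pcx* to 0.16 and 0.24. Without single libraries, *Asl* in kidney ranged from -0.18 to 0.89, *Fbp1* in liver from -0.10 to 0.39 and *Pcx* in liver from -0.31 to 0.095 between genotypes, and *G6pc* from -0.27 to 0.033 and *Pck1* from -0.30 to 0.13 between liver and kidney. The numbers of members called between tissues stayed within 3 to 4, 8 to 9 and 7, and the interaction count at 0. No called value changed sign. CPM on TMM-scaled totals raised liver levels, that of *Cps1* from 1812 to 3204. In liver all genes called were 40 higher and 19 lower under TMM but 27 and 31 under library totals, and in kidney 12 and 18 under TMM but 16 and 13 under RLE. Over the 4819 liver genes with a mean of at least 10 counts per library, of 13356 tested, the median moved by 0.12 under TMM and by -0.05 under library totals. The causes were not tested. Shallow intestine libraries limit what could be detected there.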

Other observations

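Regulators and hormone-responsive genes were also listed. Of 11 transcription regulators of these enzymes tested in liver 0 were called and 7 had a positive fold change (median 0.12, and 0.22 over all genes). Without single libraries that median ranged from -0.07 to 0.46. *Ppargc1a*, a coactivator of gluconeogenesis in fasting, was at 2.03 ± 1.10 on the log2 scale (edgeR, adjusted p = 0.746), and *Hnf4a*, a hepatocyte factor, at 0.12 ± 0.39 (0.962). Of 8 glucocorticoid-responsive genes tested in kidney 2 rose, with 0.078% of genes called higher there, and 7 had a positive fold change (median 0.57, against -0.28 over all genes). *Txnip*, which is also induced by glucose, was at 437, 229.6 and 599.5 CPM in wild-type and 1010.4, 976 and 1031 CPM in *Scx*-/- kidney (log2 fold change 1.16 ± 0.24, edgeR, adjusted p = 0.00242). *Mt2*, a metallothionein, was at 81.7, 55.7 and 78.8 CPM and at 129.7, 332 and 322 CPM (1.74 ± 0.42, adjusted p = 0.0205). The call held under 9 of 11 alternatives for *Txnip* and 4 of 11 for *Mt2*. In liver 0 of 8 such genes tested were called by edgeR or DESeq2, 7 had a positive fold change (median 0.69, against 0.22 over all genes, and 1.28 without wild-type library 3), and *Mt2* was at 2.56 ± 0.60 (edgeR, adjusted p = 0.239). With a replicate block 1 of the 8 was called higher, and without *Scx*-/- library 1, 2 or 3 the number was 2, 1 and 2.

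Among other genes of the lists in liver, *Apoa2*, a hepatocyte marker, rose from 8825 ± 1951 to 12786 ± 994 CPM (0.72 ± 0.16, edgeR, adjusted p = 0.00314), and *Fabp1*, the liver fatty acid binding protein, fell from 4523 ± 1650.4 to 2190.2 ± 489.9 CPM (-0.84 ± 0.20, adjusted p = 0.0114). The *Apoa2* call held under 6 and the *Fabp1* call under 5 of 11 alternatives.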
